A study of Mus musculus with 7 samples.

Results

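The 10 genes described here mark stem or progenitor cells of the gastric glands or belong to the Wnt and BMP pathways that act on them: Lgr5, Tnfrsf19, Lrig1, Runx1, Bmi1, Sox2, Axin2, Rnf43, Ascl2 and Bmp4. They were chosen by name, and each is given by the probe set with the highest mean among those annotated to that single symbol, so they are 10 of 22180 genes measured. RNA came from snap-frozen gastric corpus, the acid-secreting body of the stomach, of Atp4b-DTR mice. In these mice the diphtheria toxin receptor is named for Atp4b, the proton pump gene of parietal cells, so that toxin is meant to kill the acid-secreting parietal cells. All groups carried the transgene, and all mice were adults of 8 to 12 weeks.

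Toxin at 225 ng per mouse was injected into the peritoneum once a day on 3 days, and tissue was taken 24, 36, 48 or 72 h after the last of the 3 doses. The control received saline vehicle on the same schedule. There was 1 array of the control, 1 after 24 h, 1 after 36 h, 2 after 48 h and 2 after 72 h. The replicates are described as independent samples, but the number of mice behind each is not stated, and the p-values below measure only the spread between these arrays. Toxin-treated mice without the transgene and saline mice at other times were not analysed here.

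Wnt proteins bind Frizzled receptors and LRP co-receptors and let beta-catenin enter the nucleus, where it works with TCF and LEF proteins on target genes. R-spondins, bound by Lgr receptors, strengthen this signal by removing the ubiquitin ligases Rnf43 and Znrf3, which otherwise clear Frizzled from the cell surface. BMP ligands from the stroma oppose Wnt signalling along the gland and favour differentiation. In the corpus, progenitors divide in the isthmus, and some chief cells at the gland base express Lgr5 or Tnfrsf19 and are held in reserve.

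To show what lies at the start of these genes, windows of 250 bases before the transcription start were read from RefSeq (GRCm38.p6), which held entries for 9 of the 10 genes, 12 windows in all. Each was searched on both strands for 4 forms of the TCF/LEF site, CTTTGAA or CTTTGAT, as well as CTTTGTA or CTTTGTT, which do not overlap one another. A form was found in 2 of the 12 windows and in 14.8% of 32851 windows of the same length. The matches were in Sox2 and in 1 of the 2 windows of Tnfrsf19, 207 and 202 bases before the start. The 3 windows below are Axin2, the standard Wnt target (chr11:108920099-108920348, plus strand), Sox2 (chr3:34649745-34649994, plus strand) and the matching Tnfrsf19 window (chr14:61037988-61038237, minus strand), with matches in capitals.
Axin2: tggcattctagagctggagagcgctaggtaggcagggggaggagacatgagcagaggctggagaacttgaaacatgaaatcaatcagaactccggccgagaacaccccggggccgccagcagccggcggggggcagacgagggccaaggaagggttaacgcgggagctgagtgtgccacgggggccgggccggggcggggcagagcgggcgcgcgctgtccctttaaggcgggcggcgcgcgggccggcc
Sox2: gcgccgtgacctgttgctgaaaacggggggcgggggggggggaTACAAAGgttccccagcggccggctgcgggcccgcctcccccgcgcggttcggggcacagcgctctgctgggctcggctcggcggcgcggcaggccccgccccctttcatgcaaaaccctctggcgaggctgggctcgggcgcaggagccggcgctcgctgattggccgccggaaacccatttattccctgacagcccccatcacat
Tnfrsf19: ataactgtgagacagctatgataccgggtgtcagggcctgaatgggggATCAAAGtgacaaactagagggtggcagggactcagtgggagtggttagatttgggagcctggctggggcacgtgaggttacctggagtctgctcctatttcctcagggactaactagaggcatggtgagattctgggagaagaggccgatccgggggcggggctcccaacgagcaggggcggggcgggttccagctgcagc
The Axin2 window holds none of the 4 forms, and the capitals in the other two are reverse-strand matches. A match is only a run of letters, and its absence says nothing of the factor.

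All values are log2 signal after RMA, and differences are log2 differences from the control unless stated. No level is compared between genes, because probe sets differ in brightness. The 95th percentile of 1105 olfactory receptor genes, which the stomach is not known to use, was 4.51 and served as background. All 10 genes had a mean above it and lay above it on all 7 arrays, as 61.6% of all genes did on their mean. In bulk tissue, fewer cells of a type and less RNA per cell cannot be told apart.

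Markers of corpus cells were present on all arrays. The pit cell genes Gkn1 and Gkn2 and the chief cell gene Pgc were bright on the control, at 13.01, 13.07 and 13.37. Atp4b was 12.94 on the control, and its difference was -2.25 after 24 h and -0.02 on 72 h replicate 2. On that array Atp4a of the parietal list was at -0.15, but Slc26a7 and Vegfb were at -3.72 and -1.12. Cblif, which is on the chief cell list as well as the parietal list, was at -1.19 there. Car2, also on the parietal list, was not lower after 24 h (0.04) and ran from -0.08 to 0.21 over the toxin arrays. The medians of the 10-gene parietal list were -1.53 after 24 h, -0.75 after 36 h, -1.26 and -0.79 after 48 h, and -0.74 and -0.25 after 72 h. Xist, a transcript of female cells, was 8.13 on the control and 9.17 after 24 h but 2.70 to 3.27 on the other 5 arrays, while 3 Y-linked genes ran the other way. The 36, 48 and 72 h arrays therefore differ from the control in sex pattern as well as in toxin, and these cannot be told apart there, whereas the 24 h array shares the control's pattern.

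**Figure D1:**
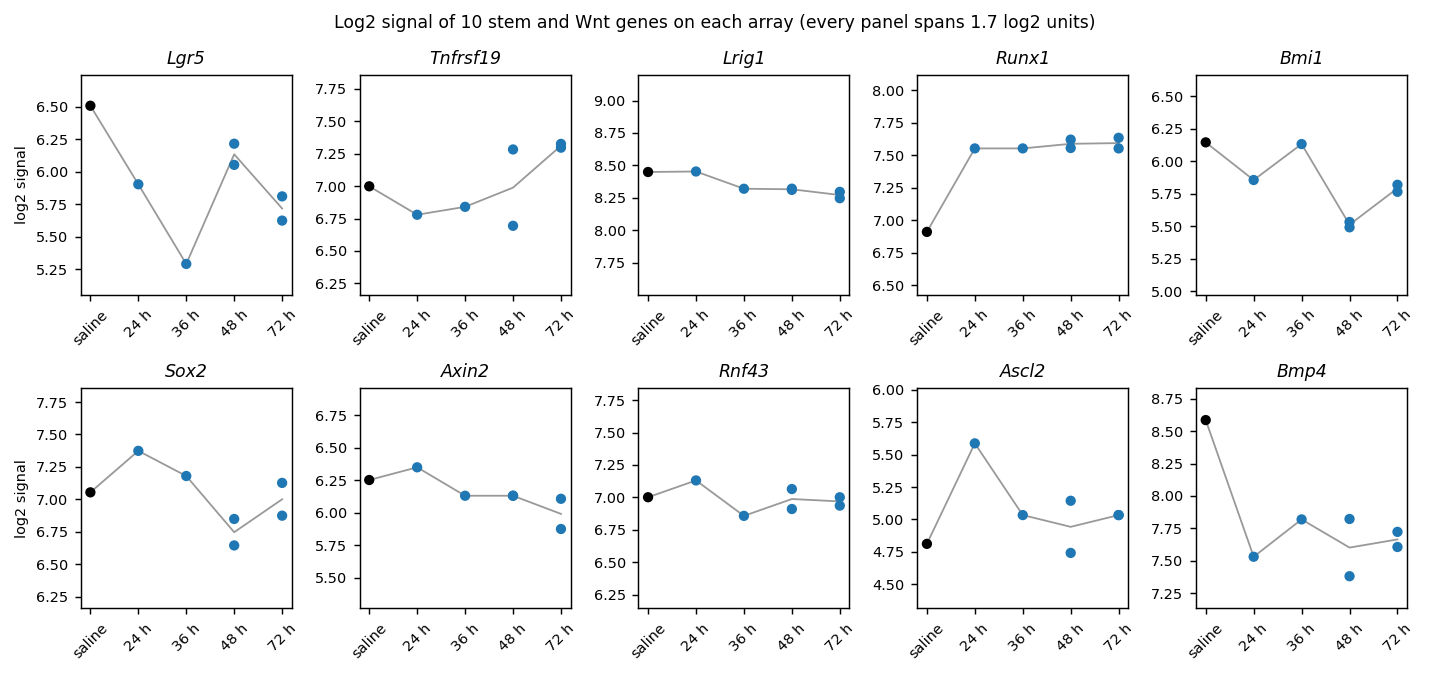
Log2 signal of each of the 10 genes (y axis, every panel spanning the same 1.7 log2 units) on the saline control (black) and on the toxin arrays at 24, 36, 48 and 72 h (blue, x axis), with a grey line through the group means. Runx1 lies higher and Bmp4 lower than the control on every toxin array, and Lgr5 is lowest after 36 h.

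Differences were tested with limma over all 22180 genes: 48 h and 72 h each against the control, 72 h against 48 h, and a slope per 24 h over the 6 toxin arrays. At an adjusted p (Benjamini-Hochberg) under 0.05 they called 0% of all genes each, so none of the 10 genes was called. At an unadjusted p under 0.05, 1 of the 10 genes was higher and 2 were lower after 48 h, where 8.16% and 11.6% of all genes were. At 72 h, 1 was higher and 4 were lower, against 7.93% and 10%. Between 72 h and 48 h, 2 of the 10 passed this mark (7.07% of all genes), and 2 passed it for the slope (8.7%).

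A further comparison, added after the values had been seen, set the 6 toxin arrays together against the control. It called 6.58% of all genes, 2.06% higher and 4.52% lower, and among the 10 genes it called Runx1 higher and Bmp4 lower. It rests on 1 control array, whose own spread is assumed to match that of the toxin arrays. Without replicates, 1 of the 10 genes lay at least 2-fold lower and 0 at least 2-fold higher after 24 h, where 1.67% and 1.2% of all genes did. The same counts were 1 and 0 after 36 h, against 1.61% and 0.933%. Of the 10 genes, 1 lay above the control on all 6 toxin arrays (Runx1) and 3 lay below it (Lgr5, Bmi1 and Bmp4), as 20.2% and 22.6% of all genes did. With a gap of at least 0.5 on all 6 arrays, a rule added after the values had been seen, Runx1 was above and Bmp4 below, as 1.15% and 2.9% of all genes were.

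**Figure D2:**
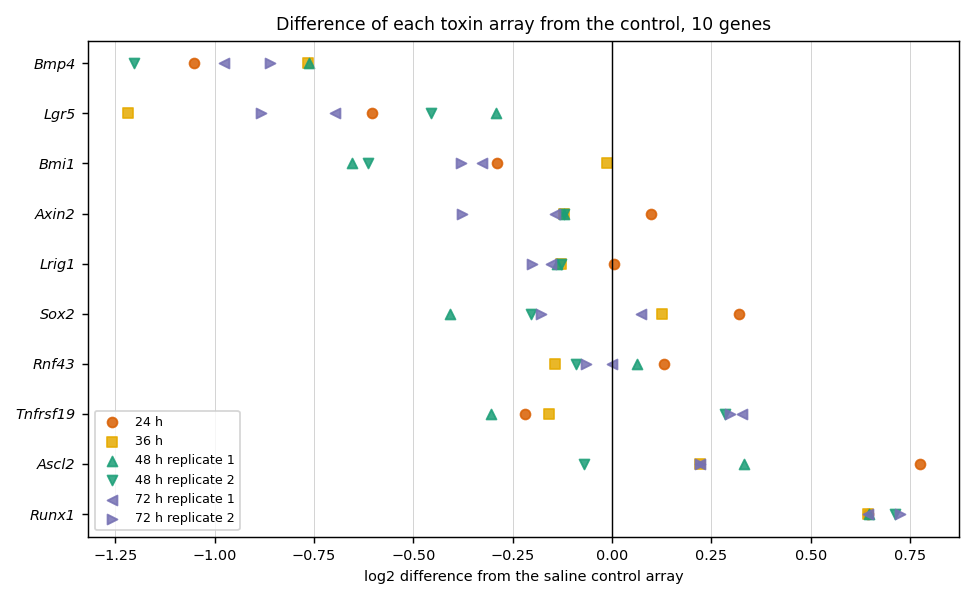
Log2 difference from the saline control (x axis) of each toxin array (markers by time and replicate) for the 10 genes, ordered by mean difference. All 6 markers of Runx1 lie right of 0 and all 6 of Bmp4, Lgr5 and Bmi1 lie left of it, while the other genes have markers on both sides or close to 0.

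Lgr5, the R-spondin receptor that marks reserve stem cells, was 6.51 on the control, 5.90 after 24 h, 5.29 after 36 h, 6.22 and 6.05 after 48 h, and 5.81 and 5.62 after 72 h. All 6 toxin arrays lay below the control, and the lowest was 36 h, at -1.22. From high to low the groups ran control, 48 h, 24 h, 72 h and 36 h, and every step but the one from 24 h to 72 h exceeded the gap within replicate pairs. The difference was -0.37 ± 0.13 (SE) after 48 h, with a limma adjusted p of 0.275, and -0.79 ± 0.13 after 72 h, with 0.161. From 48 h to 72 h it was -0.42 ± 0.11, with an adjusted p of 0.705. A second probe set of Lgr5 read 3.99 to 4.24 on all arrays, below background. With the mean of both probe sets the difference was -0.21 after 48 h and -0.41 after 72 h.

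Chief cell markers were also lower on the toxin arrays, by their medians. The 8-gene list, of which Cblif is also on the parietal list, had medians of -0.71 after 24 h, -1.02 after 36 h, -0.85 and -0.64 after 48 h, and -0.74 and -0.77 after 72 h. The summed signal of the list was 0.78 of the control after 24 h, 0.58 after 36 h, 0.73 and 0.76 after 48 h, and 0.74 and 0.69 after 72 h. Both Lgr5 and the list were lowest after 36 h. The medians of the endothelial list, at -1.24, and the enteroendocrine list, at -0.43, were lowest there too. On 48 h replicate 1, where Lgr5 was nearest to the control at -0.29, the chief cell median was -0.85. Within the chief cell list, Pgc differed from the control by -0.19 to 0.09, Lipf was below background, and the other genes carried the lower medians. Cblif, Chia1 and Clps were lowest after 36 h. Pga5, Slc16a7 and Bhlha15 were lowest on a 48 h array, at -3.39, -2.14 and -0.99. The part of chief cell number in the Lgr5 values was not tested.

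Tnfrsf19, also called Troy, is a receptor of the TNF receptor family found on chief cells that can act as stem cells. It was 6.998 on the control, 6.78 after 24 h, 6.84 after 36 h, 6.69 and 7.28 after 48 h, and 7.33 and 7.30 after 72 h. The 24 and 36 h arrays lay below the control and both 72 h arrays above it, but the 48 h replicates lay on opposite sides, 0.59 apart. No step in the order of its groups exceeded that gap. The difference after 72 h was 0.31 ± 0.29, with a limma adjusted p of 0.713, and the slope was 0.28 ± 0.10 per 24 h, with 0.543.

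Lrig1, a membrane inhibitor of ERBB growth factor receptors that marks slowly dividing progenitors, was 8.45 on the control and after 24 h, 8.32 after 36 h, 8.31 and 8.32 after 48 h, and 8.30 and 8.25 after 72 h. Its differences from the control ran from -0.20 to 0.00, the narrowest range of the 10 genes in group means. Only the step from the control to 36 h exceeded the gap within pairs. The difference was -0.13 ± 0.05 after 48 h and -0.18 ± 0.05 after 72 h, with limma adjusted p of 0.320 and 0.254.

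Runx1, a RUNX transcription factor whose enhancer marks isthmus stem cells, was 6.91 on the control, 7.55 after 24 h, 7.55 after 36 h, 7.56 and 7.62 after 48 h, and 7.55 and 7.64 after 72 h. The toxin arrays lay together, 0.64 to 0.73 above the control, and the same RMA value stood on the 24 h, 36 h and first 72 h arrays. Only the step from the control exceeded the gap within pairs. At 48 h and 72 h the difference was 0.68 ± 0.07, with limma adjusted p of 0.121 and 0.146. In the added comparison of all toxin arrays Runx1 rose by 0.67 ± 0.06, 1.59-fold, with a limma adjusted p of 0.00578, and this call held without any 1 toxin array (0.0116 to 0.0170). Each of these runs kept the 1 control array, so they cannot show how far the call rests on it. Equal values among the toxin arrays also make the standard error small. The 24 h array, which shares the control's sex pattern, was 0.64 above the control.

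Runx1 is also abundant in blood cells. Of 7 leukocyte markers measured, 3 to 5 were higher than the control on each toxin array. Their medians ran from -0.06 to 0.17 and their summed signal from 1.09 to 1.47 of the control. Ptprc, the common leukocyte antigen, was 0.10 to 0.28 above the control, and Lyz2, a macrophage lysozyme, 0.64 to 1.04 above it. The macrophage receptor Csf1r was at -0.60 to -0.02, below the control on all 6 toxin arrays, and the macrophage gene Adgre1 was below it on 5 of 6. Cd68 lay on both sides of the control, from -0.37 on 72 h replicate 1 to 1.19 on 48 h replicate 1. The part of leukocytes in the Runx1 values was not tested.

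Bmi1, a subunit of Polycomb repressive complex 1 that silences cell cycle inhibitors, was 6.15 on the control, 5.86 after 24 h, 6.13 after 36 h, 5.49 and 5.53 after 48 h, and 5.82 and 5.77 after 72 h. The 48 h arrays were the lowest and the 36 h array was level with the control, at -0.01. After that pair, each step down, to 24 h, 72 h and 48 h, exceeded the gap within pairs. The difference was -0.63 ± 0.06 after 48 h (limma adjusted p of 0.120) and -0.35 ± 0.06 after 72 h (0.161). From 48 h to 72 h it was 0.28 ± 0.05, with an adjusted p of 0.705.

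Sox2, a transcription factor of foregut and gastric progenitors, was 7.05 on the control, 7.37 after 24 h, 7.18 after 36 h, 6.64 and 6.85 after 48 h, and 7.13 and 6.87 after 72 h. It was above the control on the 2 earliest arrays and below it on both 48 h arrays. Of the steps in its order, only that from 72 h to 48 h exceeded the gap within pairs, by 0.254 against 0.252. The difference after 48 h was -0.31 ± 0.17, with a limma adjusted p of 0.451. Sox2 is also made by squamous forestomach epithelium, whose 9 measured markers summed to 0.61, 0.96, 0.26, 1.19, 1.71 and 0.24 of the control on the toxin arrays in order of time. Their part in the Sox2 values was not tested.

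Axin2, a scaffold of the beta-catenin destruction complex that Wnt signalling itself induces, was 6.25 on the control, 6.35 after 24 h, 6.13 after 36 h and on both 48 h arrays, and 6.11 and 5.87 after 72 h. Only 24 h lay above the control, and no step exceeded the gap of 0.23 between the 72 h arrays. The difference was -0.12 ± 0.12 after 48 h and -0.26 ± 0.12 after 72 h, with limma adjusted p of 0.734 and 0.413. The slope was -0.15 ± 0.05 per 24 h, with 0.532. A second Axin2 probe set, also above background, read 5.48 on the control, 5.80, 5.40, 5.63, 5.85, 5.48 and 5.63 on the toxin arrays in order of time. By the group means it gave the other direction after 48 h (5.74) and after 72 h (5.56).

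Rnf43, the ubiquitin ligase that removes Frizzled receptors and is itself a Wnt target, was 7.002 on the control, 7.13 after 24 h, 6.86 after 36 h, 7.06 and 6.91 after 48 h, and 7.002 and 6.94 after 72 h. The arrays lay on both sides of the control, from -0.14 to 0.13. The difference was -0.01 ± 0.09 after 48 h and -0.03 ± 0.09 after 72 h, and its group steps were all within the gap of the 48 h pair.

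Ascl2, a basic helix-loop-helix factor that Wnt induces in intestinal stem cells, was 4.81 on the control, 5.59 after 24 h, 5.03 after 36 h, 5.14 and 4.74 after 48 h, and 5.03 on both 72 h arrays. The 24 h array stood highest, 0.77 above the control, and 48 h replicate 2 was the only array below it. Only the step from 24 h to 36 h exceeded the gap within pairs. The difference was 0.13 ± 0.20 after 48 h and 0.22 ± 0.20 after 72 h. Proliferation markers were also highest after 24 h, with a median of 1.45 over 9 genes, and ran down to 0.48 on 72 h replicate 2. Their part in the Ascl2 values was not tested.

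Bmp4, a BMP ligand of the gastric stroma, was 8.58 on the control, 7.53 after 24 h, 7.82 after 36 h, 7.82 and 7.38 after 48 h, and 7.61 and 7.72 after 72 h. All toxin arrays lay below the control, at -1.20 to -0.76, and the toxin groups differed from one another by less than the gap of 0.44 between the 48 h arrays. The difference was -0.98 ± 0.23 after 48 h and -0.92 ± 0.23 after 72 h, with limma adjusted p of 0.182 and 0.213. In the added comparison of all toxin arrays Bmp4 fell by 0.94 ± 0.17 on the log2 scale, 1.91-fold, with a limma adjusted p of 0.0274. That call was lost without the 24 h array (0.0537) and without 72 h replicate 1 (0.0621). The 24 h array, of the control's sex pattern, was at -1.05.

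Fibroblast and endothelial lists were lower on the toxin arrays too, by their medians, but smooth muscle genes were not on every array. The 8 fibroblast and telocyte genes had medians of -0.15 to -0.56, and their summed signal was 0.70 to 0.93 of the control. The 6 endothelial genes had medians of -0.92 to -1.24 and summed to 0.41 to 0.53 of the control. Among them Tek ran from -0.59 to 0.12. The 6 smooth muscle genes had medians of -0.31 to 0.14 and summed to 0.87 to 1.07 of the control. Of the fibroblast list, Pdgfra, a receptor of stromal cells that send BMP signals, was at -0.63 to -0.31 on the toxin arrays. The collagen genes went the other way: Col1a1 was 0.06 to 0.90 and Col3a1 0.06 to 0.74 above the control, and Col1a2 ran from -0.05 to 0.56. The medians of the parietal list were also below the control on every toxin array, from -1.53 after 24 h to -0.25 on 72 h replicate 2. Bmp4 was at -1.05 and -0.86 on those arrays. The part of stromal or of parietal cells in the Bmp4 values was not tested.

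**Figure D3:**
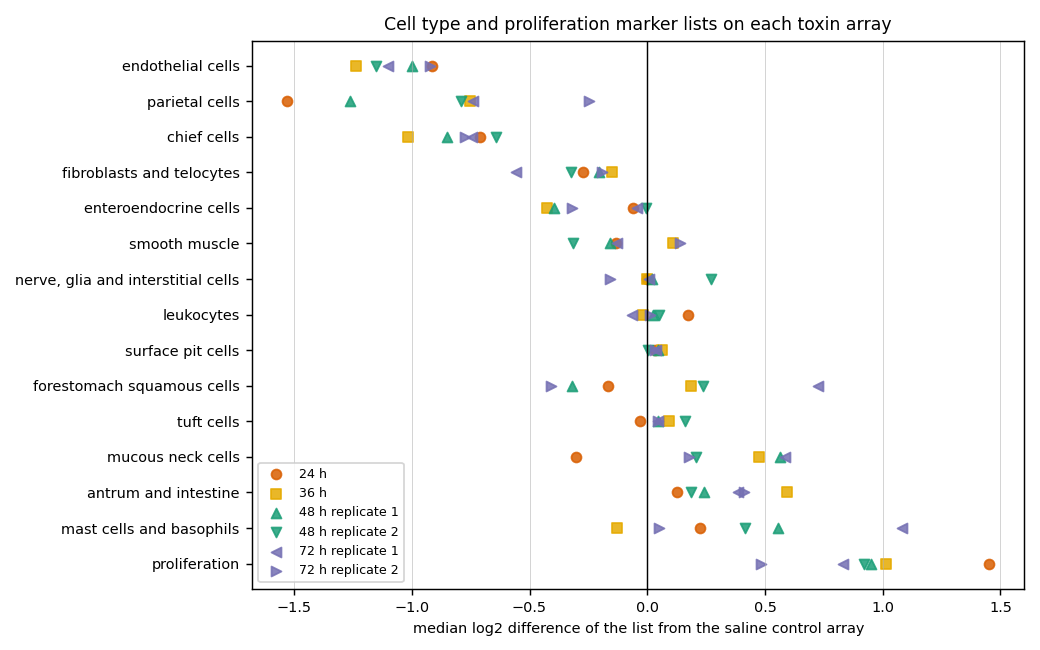
Median log2 difference from the saline control (x axis) of each cell type or proliferation list (y axis) on each toxin array (markers by time and replicate). Endothelial, parietal, chief cell, fibroblast and enteroendocrine lists lie left of 0 on all 6 toxin arrays. The proliferation, antrum and intestine, and pit cell lists lie right of 0 on all 6. On 48 h replicate 2 the enteroendocrine and pit cell lists lie almost at 0, at -0.005 and 0.0045.

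The BMP ligands and receptors were the pathway list that lay lowest. Of 9 measured, 6 were lower after 48 h and 7 after 72 h, with medians of -0.45 and -0.52 beside 0.00 for all genes. None was called in those comparisons, while 4 passed an unadjusted p under 0.05 in the lower direction after 48 h (11.6% of all genes) and 5 after 72 h (10%). In the added comparison 4 were called lower, as 4.52% of all genes were. Beside Bmp4 these were the ligands Bmp6 (-0.48, limma adjusted p of 0.0165) and Bmp7 (-1.03, 0.0342), and the receptor Bmpr1b (-2.08 ± 0.33, 0.0192). Bmp7 lost its call without the 36 h array or without any 1 of the 48 h arrays or 72 h replicate 1, with an adjusted p up to 0.0697.

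Bmpr1b, the type I BMP receptor with the largest difference, was 7.63 on the control, 5.28 after 24 h, 5.79 after 36 h, 5.03 and 5.53 after 48 h, and 5.61 and 6.02 after 72 h. The differences ran from -2.59 to -1.61, and 72 h replicate 2 was nearest to the control, followed by the 36 h array. Bmp2 ran the other way, at 8.14 on the control and 8.25 to 8.60 on the toxin arrays. Of the other type I receptors listed, Bmpr1a differed by -0.13 ± 0.12 and Acvr1 by 0.08 ± 0.14 after 48 h.

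Of 8 BMP effectors and targets, the added comparison called 1, Smad9, a signal-carrying Smad, lower by -0.72 (limma adjusted p of 0.00746). The inhibitor of differentiation genes, classic BMP targets, did not go one way: after 48 h Id2 was -0.81 ± 0.16 and Id4 -0.52 ± 0.10, while Id1 was 0.44 ± 0.26 and Id3 0.25 ± 0.10. Of 8 BMP antagonists measured, Chrdl1 was called lower (-0.68, 0.0479), a call lost without any 1 of the 24, 48 or 72 h arrays (0.0563 to 0.0915). Fst, which traps activins and BMPs, was 0.67 ± 0.13 after 48 h, and Grem1 0.41 ± 0.10, while Smad6, an inhibitory Smad, was -0.60 ± 0.16. None of the last 3 was called.

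**Figure D4:**
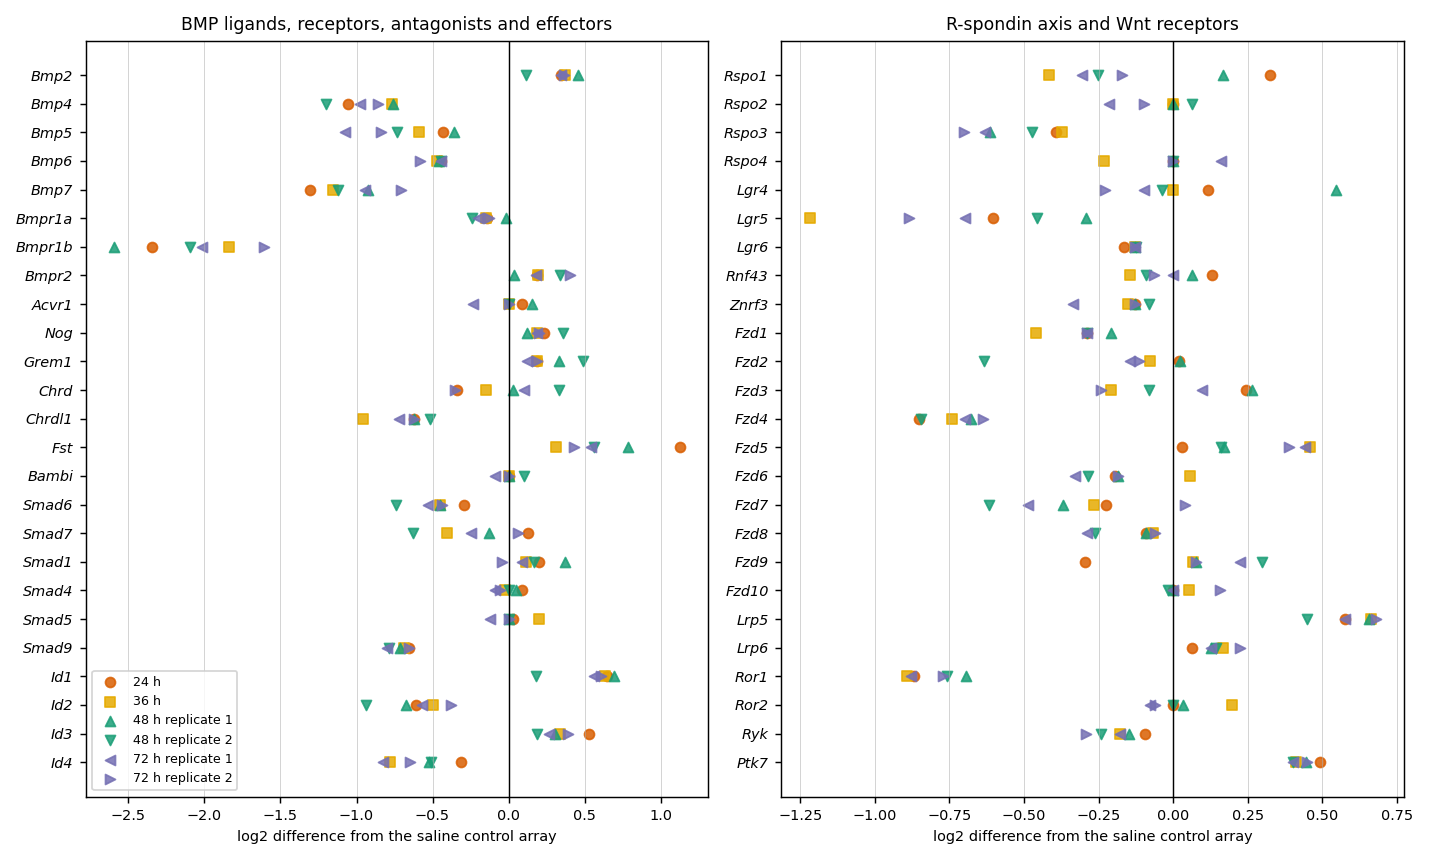
Log2 difference from the saline control (x axis) of each toxin array (markers by time and replicate) for BMP pathway genes (left panel) and for R-spondin axis genes and Wnt receptors (right panel). Bmpr1b and Bmp7 lie furthest left among the BMP genes, and Ror1 and Fzd4 lie left while Lrp5 and Ptk7 lie right of 0 on all toxin arrays.

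Wnt receptors went both ways. Of 16, the added comparison called Fzd4, a Frizzled receptor of endothelium (-0.74, limma adjusted p of 0.0117), and Ror1, an alternative Wnt receptor (-0.81, 0.00788), lower. It called Lrp5, a Wnt co-receptor (0.60, 0.0189), and Ptk7, a co-receptor of planar polarity (0.43, 0.0129), higher. The Ptk7 call was lost with array medians subtracted (0.0590). Their levels on the control were 9.60 for Fzd4 and 7.44 for Lrp5, and on the toxin arrays 8.75 to 8.97 and 7.88 to 8.11.

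The R-spondin axis, the R-spondins with their Lgr receptors and the ligases Rnf43 and Znrf3, held 9 genes including Lgr5 and Rnf43. At 72 h 8 of them were lower, with a median of -0.16 beside 0.00 for all genes, and none was called. Rspo3, a stromal R-spondin, was 6.63 on the control and 5.93 to 6.25 on the toxin arrays, all below it. Lgr4, the most widely made Lgr receptor, was 9.40 on the control and 9.17 to 9.94 on the toxin arrays, on both sides of it.

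Of 19 Wnt target genes measured, including Axin2, Rnf43, Lgr5 and Ascl2, 9 were higher and 10 lower after 48 h, with a median of -0.01, and none was called in any of the 5 comparisons. Myc, a growth regulator, was 7.05 on the control and 7.47 to 8.02 on the toxin arrays, highest after 24 h. Cd44, a surface glycoprotein of dividing and metaplastic glands, was 5.86 on the control, 6.49 after 24 h, 6.34 after 36 h, 6.98 and 6.21 after 48 h, and 6.45 and 6.04 after 72 h. Both lay above the control on every toxin array. At 48 h the difference was 0.80 ± 0.10 for Myc and 0.74 ± 0.43 for Cd44, with limma adjusted p of 0.12 and 0.49.

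The ligands and the cytoplasmic and nuclear parts of the Wnt pathway gave no call in any of the 5 comparisons: 19 ligands, 10 transducers and 12 nuclear factors were measured. The 48 h medians were 0.07, 0.02 and -0.09. The largest differences after 48 h among those above background were 0.43 ± 0.07 for the ligand Wnt10a and 0.26 ± 0.17 for Wnt7b. For the transducers they were -0.24 ± 0.20 for Btrc, which marks beta-catenin for destruction, and 0.20 ± 0.06 for Dvl1, which relays the receptor signal. For the nuclear factors they were -0.38 ± 0.26 for the co-repressor Tle2 and 0.33 ± 0.14 for Tcf7l2, a TCF that binds beta-catenin. Of 13 secreted Wnt inhibitors, Sfrp1, a Frizzled-like trap, was called lower in the added comparison (-0.83, limma adjusted p of 0.0491). That call was lost with quantile normalisation repeated (0.0600) and without any 1 of the 24, 48 or 72 h arrays (up to 0.0924). Dkk3, of the Dickkopf family, was -0.81 ± 0.27 after 48 h and was not called.

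Around Runx1 and Bmi1, 4 genes of the RUNX family and its partners were measured: Runx1, Runx3, Cbfb and Runx1t1. Among them, the added comparison called only Runx1 higher and only Runx1t1 lower (-1.12, limma adjusted p of 0.00663). Runx1t1 is a co-repressor known as a fusion partner of RUNX1 in leukaemia. Of 14 subunits of Polycomb repressive complex 1, Phc3 (0.60, 0.0213) and Pcgf2 (0.51, 0.0312) were called higher, while Bmi1 itself was not called. Pcgf2 lost its call with array medians subtracted (0.0649), without the 36 h array (0.0607) and without 72 h replicate 2 (0.0532). Among 16 corpus stem and progenitor markers, 8 were higher and 8 lower after 48 h, and beside Runx1 the added comparison called the RNA-binding protein Msi1 lower (-0.37, 0.0215). Msi1 was 5.14 on the control and had the same RMA value, 4.76, on every toxin array but 48 h replicate 2 (4.86). These values lie near the background of 4.51, and equal values make the standard error small. Olfm4, a secreted stem cell marker of the intestine, was 6.31 on the control and 5.002 after 24 h, its lowest array, with -0.76 ± 0.20 after 48 h and no call.

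Lrig1 restrains ERBB receptors. Of 7 LRIG and ERBB genes, Lrig1 included, 5 were higher after 48 h and after 72 h, with medians of 0.10 and 0.22 beside 0.00 for all genes, and none was called in any of the 5 comparisons. Erbb3, a neuregulin receptor, was 8.27 on the control and 8.69 to 9.20 on the toxin arrays, and Egfr, the epidermal growth factor receptor, was 7.47 and 7.69 to 7.94. Both lay above the control on all 6. Of 13 gastric transcription factors, the company of Sox2, 7 were higher and 6 lower after 48 h and none was called in the 5 comparisons. The largest differences there were 0.39 ± 0.09 for Foxa1, a forkhead factor of gut endoderm, and 0.38 ± 0.23 for Nkx6-3, a factor of antral endocrine cells. The 8 markers of antrum and intestine summed to 0.92 of the control after 24 h and to 1.19 to 1.86 of it on the later arrays, and Gast, the antral hormone gastrin, was 0.17 to 2.48 above the control, highest on 72 h replicate 1. Their part in the values of Nkx6-3 or of the 10 genes was not tested.

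The 3 genes of widest range in group means, Lgr5, Bmp4 and Ascl2, were set beside 12500 genes above background, leaving out the 10 genes themselves, predicted genes, small RNA, immunoglobulin, T cell receptor and sensory receptor genes and pseudogenes, by the root mean square distance of values centred on each gene's mean over the 7 arrays. Nearest to Lgr5 were Serpinb9 at 0.134, Chia1 at 0.137 and Gimap8 at 0.159. Nearest to Bmp4 were Nicn1 at 0.0705, Rbl2 at 0.0706 and Tfb2m at 0.0756. Nearest to Ascl2 were Nup107 at 0.0635, Cyth4 at 0.0760 and Gadd45b at 0.0775. Chia1, an acidic chitinase, is on the chief cell list and was -1.45 after 36 h, its lowest array, as for Lgr5. Serpinb9 and Gimap8, which are not on that list, were also lowest after 36 h. They read 4.18 and 4.33 there, below the background of 4.51. Being lowest where Lgr5 was lowest partly follows from how these genes were picked, by nearness to it on the same arrays. All these distances are descriptions over 7 arrays that share their processing.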

How the data were processed

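Biotinylated cDNA was made from total corpus RNA (Affymetrix WT Plus kit) and put on 1 array per sample. The deposited values are log2 signal of 41345 probe sets made by the authors with Partek and RMA, which the labels name per the submitters' processing notes. The version of each is not given in the sources used here. RMA quantile normalises arrays, which can hide a shift shared by most genes, and can give arrays equal values. Array medians ran from 4.56 to 4.71, and the values were used unscaled. The number of arrays limits the precision.

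Groups follow the labels. Probe sets with 1 gene symbol (23521) were kept, 1814 with several and 16010 with none were left out, and the highest-mean probe set stood for each of 22180 genes. Comparisons used limma 3.58.1 in R 4.3.3 with 1 mean per group, or a slope over the toxin arrays, and Benjamini-Hochberg adjustment over all genes. Only the fit of 48 h against the control was tried on simulated data, so the slope and the added comparison of all toxin arrays were not. With 1 array, 24 and 36 h have values only. The genes and lists were chosen with earlier results of these data known. All 10 genes are named. Of each list, called genes (up to 4) are named, otherwise the 2 above background with the largest difference at 48 h; further genes were named after their values were seen. The alternatives were scaling, probe set choice, dim genes, variance trend, replicate block and leaving out arrays.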

Additional observations from a re-analysis of the deposited data

Results flagged for a closer look

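For Tnfrsf19, Sox2, Axin2, Lrig1 and Rnf43, 1 time point lay above the control and another below it, by the group means. The share of all genes that did so was not counted, so this is no trait particular to these genes. Except where 72 h was set against 48 h, the difference between times was not tested, and 24 h and 36 h have 1 array each. Tnfrsf19 was below the control at 24 h and above it at 72 h, a difference between the times of 0.53. Sox2 was above it at 24 h and below it at 48 h, with -0.63 between them. Axin2 was above it at 24 h and below it at 72 h, with -0.36, Lrig1 likewise with -0.18, and Rnf43 was above it at 24 h and below it at 36 h, with -0.27. The Lrig1 value at 24 h was level with the control. The second Axin2 probe set lay above the control at 72 h by the group mean, at 5.56 against 5.48.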

How the results depend on the processing

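Runx1 kept its direction against the control at 48 h, at 72 h and over all toxin arrays in every alternative run for each, as did Bmp4, Bmi1 and Lgr5. With the mean of probe sets Lgr5 was -0.32 at 24 h, -0.74 at 36 h, -0.21 at 48 h, -0.41 at 72 h, -0.21 from 48 h to 72 h and -0.38 over all toxin arrays, each smaller than reported by over 1.5 times. Adjusted p-values of the 10 genes stayed above 0.05 in the 4 planned comparisons. Genes called at 48 h numbered 0 as reported, 7 with quantile normalisation repeated and 167 with array medians subtracted, and at 72 h 0, 5 and 30. Subtracting array medians shifts the median gene by -0.04 to -0.14. All toxin arrays against the control called 1460 genes, and 902 to 1343 without 1 toxin array, fewest without 72 h replicate 1, and 958 without the 36 h array. Genes at least 0.5 above the control on all 6 arrays numbered 255, and 155 with medians subtracted.

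Signs turned in the following, and the cause was not tested. With the mean of probe sets, Axin2 was 0.068 at 48 h and 0.0086 over all toxin arrays. With quantile normalisation repeated, Tnfrsf19 was 0.035 and Rnf43 0.033 at 48 h, Rnf43 was 0.0052 over all toxin arrays and Runx1 was -0.033 from 48 h to 72 h. With medians subtracted, Lrig1 was 0.023 and Rnf43 0.049 from 48 h to 72 h, and Tnfrsf19 was -0.048 over all toxin arrays. The Lgr5 slope was 0.0157, 0.0131 and 0.016 with quantile normalisation, medians subtracted and the mean of probe sets. Leaving out 1 array, ranges that cross 0 were, at 48 h, -0.30 to 0.28 for Tnfrsf19, -0.091 to 0.063 for Rnf43 and -0.070 to 0.33 for Ascl2, and at 72 h, -0.18 to 0.073 for Sox2. From 48 h to 72 h Tnfrsf19 ran from 0.028 without 48 h replicate 1 to 0.62 without 48 h replicate 2. The ranges that cross 0 were -0.036 to 0.046 for Runx1, -0.096 to 0.058 for Rnf43, -0.11 to 0.29 for Ascl2 and -0.16 to 0.28 for Bmp4. Slopes ran from -0.14 to 0.086 for Lgr5, -0.13 to 0.013 for Bmi1, -0.27 to 0.0048 for Sox2, -0.072 to 0.043 for Rnf43, -0.23 to 0.030 for Ascl2 and -0.048 to 0.066 for Bmp4. Over all toxin arrays they were -0.020 to 0.11 for Tnfrsf19, -0.12 to 0.027 for Sox2 and -0.047 to 0.0075 for Rnf43.

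The 48 h and 72 h samples share replicate numbers, but their within-pair differences correlated at -0.13 across genes, so nothing shows that the numbers pair them. With the replicate block, 72 h against 48 h called 0 genes, as without it. With the numbers crossed, added after seeing the data, it called 0 as well.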
